A study of Mus musculus with 12 samples.

Results

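PU.1, encoded by Spi1, and the receptor CSF1R, encoded by Csf1r, were followed in mouse neurospheres together with 7 genes that act beside them. The group held 5 lineage transcription factors (Spi1, Irf8, Runx1, Ikzf1 and Cebpa), 2 receptors (Csf1r and Csf2rb) and 2 ligands (Csf1 and Il34). The members were chosen by name, and every probe of the array design whose transcript identifier belonged to a member was kept. This gave 16 probes for the 9 genes, of 55681 probes and 20887 named genes with a probe in all. A probe was called expressed when it was well above background, by the scanner's own flag, in the channel of a condition on at least 3 of its 4 arrays, which held for 29361 probes. Of the members, 6 genes with 11 probes passed, and Spi1, Runx1 and Ikzf1 did not.

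Neurospheres are floating aggregates of neural precursor cells, here from the telencephalon of C57BL/6 embryos at embryonic day 13 and differentiated for 7 days. WT neurospheres came from wild-type embryos. APP_WT, BK_APP and HOE_APP neurospheres all came from APPswe/PS1dE9 embryos, an Alzheimer's disease model in which neurons are made to express the familial disease forms of APP, as a mouse and human hybrid, and of human PS1. APP_WT received no drug, BK_APP received 1 µM bradykinin (BK), and HOE_APP received 1 µM HOE-140, an antagonist of the bradykinin B2 receptor, on days 0, 3 and 6. RNA was hybridised in pairs on 12 two-colour arrays, 4 for APP_WT against WT, 4 for BK_APP against APP_WT and 4 for HOE_APP against APP_WT, with the dyes exchanged on 2 of every 4. Which channel of the HOE_APP arrays held the treated RNA is likely and not certain, as described where those values are given. The study's methods call the 4 replicates independent and biological, without naming embryos or litters.

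PU.1 is an ETS-family factor that sets the macrophage and microglia programme, and it often binds DNA beside IRF8. RUNX1 and Ikaros (Ikzf1) act earlier in blood development, while C/EBPα (Cebpa) drives the granulocyte and monocyte branch. CSF1R is the tyrosine kinase receptor on which microglia depend for survival, and CSF1 and IL-34 are its ligands, made in the brain by glia and by neurons respectively. Csf2rb encodes the common β chain of the GM-CSF, IL-3 and IL-5 receptors.

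In APP_WT neurospheres the transcripts of Irf8, Csf1r, Csf1 and Il34 were higher than in WT neurospheres, by 1.92-fold, 1.93-fold, 1.92-fold and 1.59-fold, each by its brightest probe. A second bright Csf1r probe did not follow, at 1.02-fold with an adjusted p of 0.842. Spi1 itself was at background, being well above it in 0 of 4 WT channels and 1 of 12 APP_WT channels. BK and HOE-140 moved no member past the limma threshold. The values are log2 ratios of the 2 channels of an array, so that 1 means a doubling, and each fold change is the mean of 4 arrays with a term for the dye, tested with limma and adjusted over the 29361 expressed probes at a threshold of 0.05. The SE, interval and p of a probe use a spread estimated over all 12 arrays in 1 fit. Beside an SE, n = 4 arrays counts the arrays behind the mean. Over all expressed probes 18.5% were called between APP_WT and WT, 11.6% as higher and 7.00% as lower. Counted by the brightest expressed probe of a gene, 4 of the 9 members were called higher, 2 were tested and not called, and 3 were not expressed. These counts are a description, since a probe bright only in APP_WT neurospheres could enter the test through that condition alone.

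**Figure D1:**
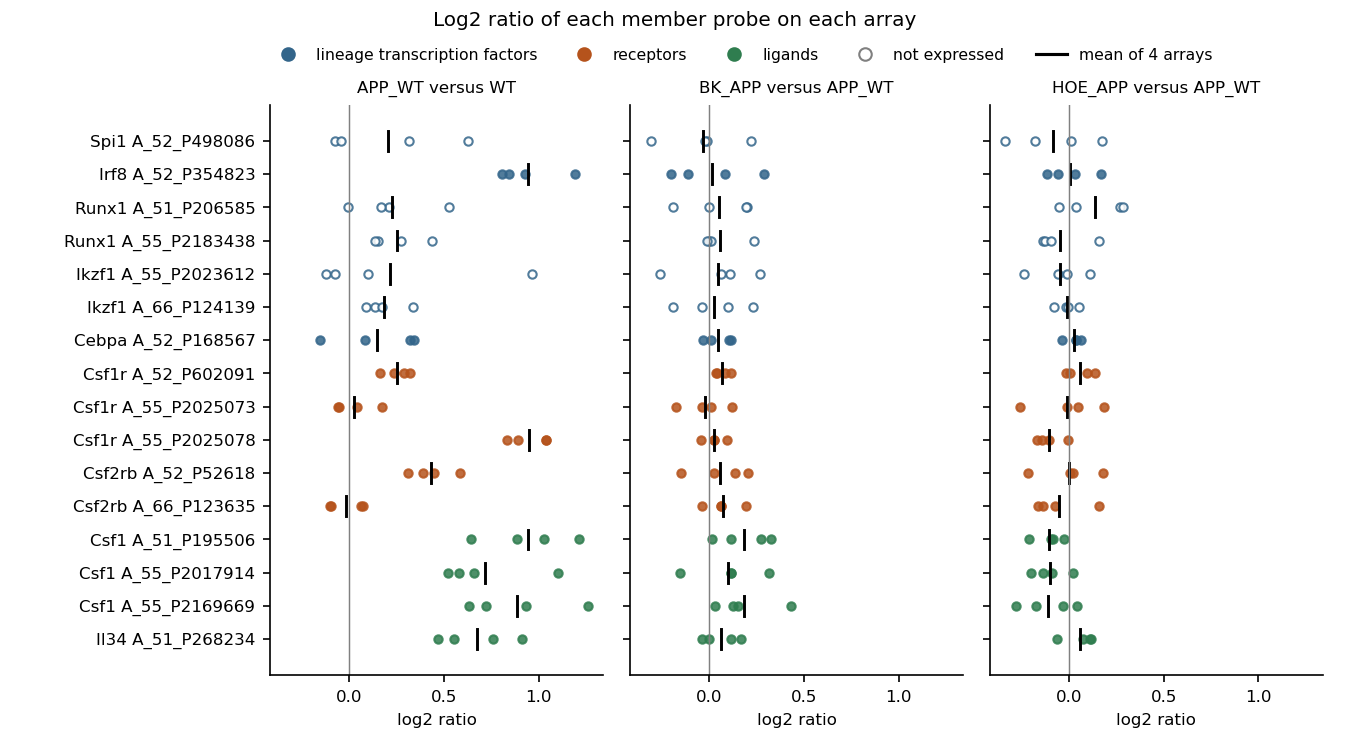
Log2 ratio (x axis) of each of the 16 member probes (rows) on each of the 4 arrays of the 3 comparisons (panels). Filled points are expressed probes, open points are probes that were not, black bars are means, and colours give the role of the gene. The Irf8, Il34 and all 3 Csf1 probes lay right of 0 on all 4 arrays of APP_WT versus WT, while the treated arrays scattered around 0 apart from small shifts.

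The agreement between arrays differed by comparison. The share of spots well above background was 51.2 to 60.3% per array, and 1 spot was saturated over the 12 arrays. Log2 ratios of arrays with the same dye layout correlated at 0.53 to 0.61, 0.24 to 0.28 and 0.34 to 0.43 over expressed probes in the APP_WT, BK and HOE comparisons. Arrays with exchanged dyes correlated at 0.24 to 0.46 in APP_WT versus WT, but at -0.32 to -0.11 for BK and -0.32 to -0.19 for HOE-140, so the dye effect was larger than the shared treatment signal there. The 4 APP_WT versus WT arrays shared a slide and a scan, and the 8 treated arrays another.

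DNA upstream of the members was taken from RefSeq on build GRCm38.p6, as the 250 bases before each transcript start, and 5 members (Irf8, Runx1, Ikzf1, Cebpa and Csf1) had an entry, with 8 starts in all. Spi1, Csf2rb and Il34 had none. Csf1r was left out of the search, and whether it has an entry was not tested. Letters of 5 motifs were searched on both strands, namely the PU.1 core GAGGAA, the ETS-IRF composite element, the IRF element, the RUNX letters TGTGGT and the C/EBP letters TTNCNNAA. The composite holds the GGAA of an ETS site and a GAAA that the IRF element also holds, so these motifs overlap. The PU.1 core was in 1 of the 8 windows and in 23.3% of 32851 promoters of the same length. That window is the second Runx1 start, with the letters TTCCTC on the printed strand beginning 46 bases before the start. The C/EBP letters were in 1 of 8, as TTTCTGAA 96 bases before the second Ikzf1 start, against 36.8% of all promoters. The composite, IRF and RUNX letters were in 0 of 8, against 2.30%, 2.98% and 14.0%. The Runx1 window is shown as the one with the PU.1 core in capitals, and the Irf8 and Csf1 windows as those of the transcription factor and the ligand that were higher in APP_WT neurospheres. The Irf8 window is read on the + strand, and those of Csf1 and Runx1 on the - strand.
Irf8, first start, chr8:120736108-120736357: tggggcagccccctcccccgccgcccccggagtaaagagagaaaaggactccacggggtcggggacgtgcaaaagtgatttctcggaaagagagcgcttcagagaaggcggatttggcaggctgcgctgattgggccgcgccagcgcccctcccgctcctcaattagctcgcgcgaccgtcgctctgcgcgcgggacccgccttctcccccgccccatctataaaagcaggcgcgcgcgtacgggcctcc
Csf1, chr3:107760470-107760719: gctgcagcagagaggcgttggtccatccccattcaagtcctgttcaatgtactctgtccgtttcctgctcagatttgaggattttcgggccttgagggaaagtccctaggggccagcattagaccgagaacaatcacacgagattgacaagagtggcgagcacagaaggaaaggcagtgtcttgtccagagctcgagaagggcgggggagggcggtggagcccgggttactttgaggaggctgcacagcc
Runx1, second start, chr16:92697330-92697579: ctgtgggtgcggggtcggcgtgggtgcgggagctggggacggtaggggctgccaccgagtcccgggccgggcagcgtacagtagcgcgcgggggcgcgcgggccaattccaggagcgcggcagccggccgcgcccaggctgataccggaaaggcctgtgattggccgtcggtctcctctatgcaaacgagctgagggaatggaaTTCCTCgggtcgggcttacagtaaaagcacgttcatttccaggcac

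Irf8, the interferon regulatory factor that partners PU.1, had log2 ratios of APP_WT over WT of 0.81, 0.84, 0.93 and 1.19 on the 4 arrays. All 4 lay above 0, as for 15.1% of expressed probes, and under both dye layouts. The mean was 0.94 ± 0.06 (SE, n = 4 arrays; 95% interval 0.80 to 1.08) with a limma adjusted p of 3.71e-06. Its level, in log2 intensity after normalisation between channels, was 7.02 ± 0.11 (SD, n = 4) in WT, with a highest channel of 7.14. In APP_WT it was 7.96 ± 0.14 (SD, n = 12), with a lowest of 7.70, so the ranges did not overlap. For levels, here and below, n counts channels. The methods give 4 replicates of each neurosphere model, so the 12 APP_WT channels, from all comparisons, may repeat the same cultures. On the arrays shared with WT, APP_WT was at 7.96 ± 0.15 (SD, n = 4), with a lowest of 7.77. On the scanner's own processed signals, which add no offset to dim probes, the log2 fold change was 1.46.

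Spi1 gave log2 ratios of 0.32, 0.63, -0.08 and -0.05. It was above 0 on the arrays with APP_WT in Cy3 and below 0 on those with APP_WT in Cy5. The WT level was 6.17 ± 0.07 (SD, n = 4) and the APP_WT level 6.31 ± 0.24 (SD, n = 12), while the lowest level of any probe well above background was 5.41 to 6.42, depending on the array. Tested without the filter on dim probes, Spi1 had a log2 fold change of 0.21 and an adjusted p of 0.142. Whether PU.1 transcript differed between the genotypes could not be shown at this signal.

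Runx1 and Ikzf1 were as dim. Runx1 probe A_51_P206585 gave -0.01, 0.52, 0.21 and 0.17, and its second probe A_55_P2183438 had a mean of 0.25. Ikzf1 probe A_55_P2023612 gave 0.96, 0.10, -0.12 and -0.08, a spread set by a single array. Ikzf1 probe A_66_P124139 gave 0.08, 0.14, 0.17 and 0.34, above 0 on each array, although it was well above background in no channel of any array. Without the filter, the adjusted p was 0.122 and 0.0505 for the Runx1 probes and 0.337 and 0.0731 for the Ikzf1 probes.

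Cebpa was the remaining factor that passed the filter, through the HOE-140 arrays. Its log2 ratios of APP_WT over WT were 0.32, -0.16, 0.34 and 0.08. The mean of 0.15 ± 0.07 (SE, n = 4 arrays) had a limma adjusted p of 0.195, and no WT channel was well above background. Without array 2 the log2 fold change was 0.27 with an adjusted p of 0.0210, and on the processed signals of all 4 arrays it was 0.64 with an adjusted p of 0.0945. Of the lineage factors, Irf8 was therefore the member past the threshold with all 4 arrays used.

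**Figure D2:**
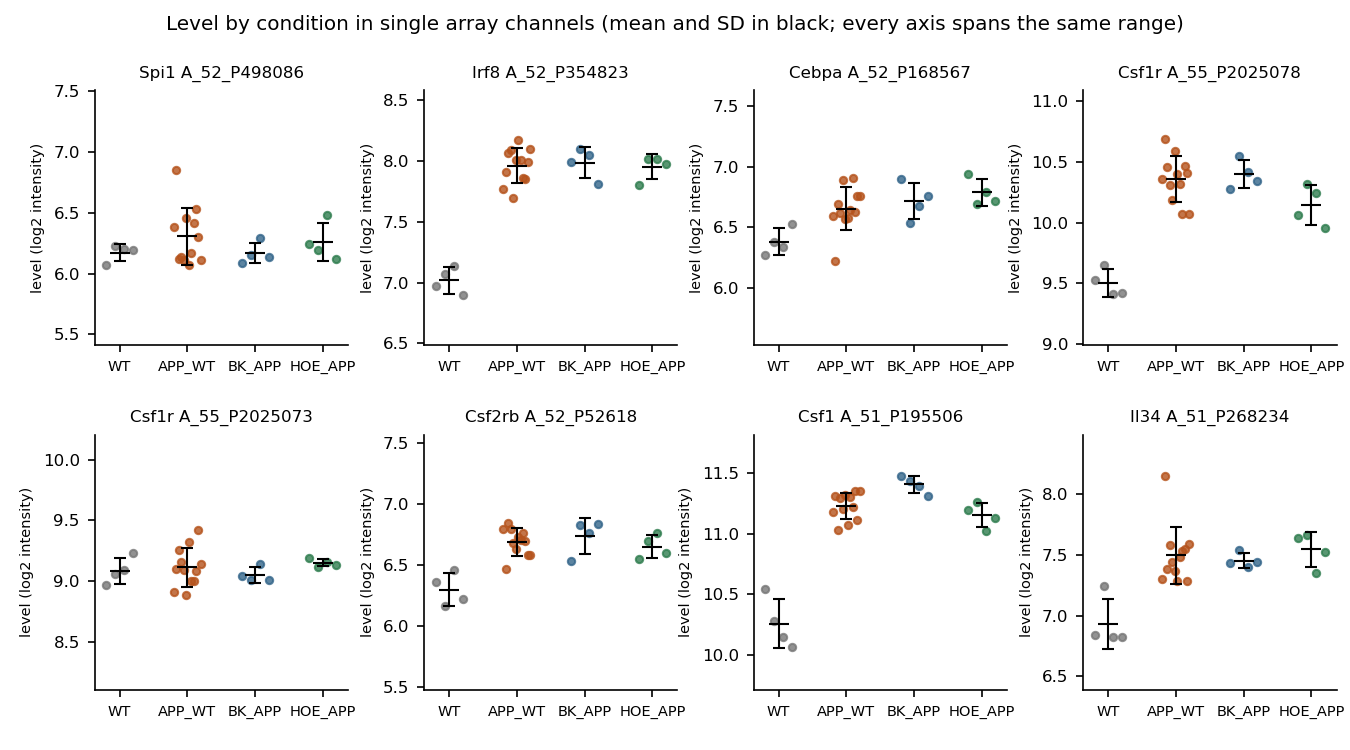
Level in log2 intensity (y axis, the same span in every panel) of 8 member probes in single channels of WT (n = 4), APP_WT (n = 12), BK_APP (n = 4) and HOE_APP (n = 4) neurospheres, with mean and SD in black. Irf8 at 7.02 in WT and 7.96 in APP_WT, and Csf1 at 10.26 and 11.23, show separate groups, while Spi1 at 6.17 and 6.31 and Csf1r probe A_55_P2025073 at 9.09 and 9.11 do not.

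Csf1r was measured by 3 probes that did not move alike. A_55_P2025078, the brightest, had log2 ratios of 0.83, 1.04, 1.04 and 0.89. These 4 values lay close together, with a mean of 0.95 ± 0.05 (SE, n = 4 arrays; 95% interval 0.83 to 1.07) and a limma adjusted p of 1.30e-06. A_52_P602091 gave 0.32, 0.29, 0.24 and 0.16. It was not well above background in any WT channel and was on 2 of 4 APP_WT channels, so both levels lay near background. The change read as 1.19-fold, with a limma adjusted p of 0.00409, and its log2 fold change on the processed signals was 1.06. SAM and rank products, the tests of the study's methods, did not both call it. A_55_P2025073 gave -0.06, 0.04, 0.17 and -0.06.

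That last probe was bright in all channels, with levels of 9.09 ± 0.11 (SD, n = 4) in WT and 9.11 ± 0.16 (SD, n = 12) in APP_WT. Its log2 fold change of 0.02 had a 95% interval of -0.12 to 0.17 (limma adjusted p 0.842), which leaves out the change of A_55_P2025078. The level of A_55_P2025078 was 9.50 ± 0.11 (SD, n = 4) in WT and 10.36 ± 0.19 (SD, n = 12) in APP_WT. Over the 12 arrays the log2 ratios of these probes differed by a root mean square of 0.55, against 0.43 between A_52_P602091 and A_55_P2025078. Which transcripts each probe detects was not tested, since the files hold no probe sequence.

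The genes whose log2 ratios lay closest to those of Csf1r probe A_55_P2025078 over the 12 arrays were Cx3cl1, Vim, Itpka, Ramp3 and Plekhb1. Their root mean square differences from it were 0.10, 0.11, 0.12, 0.13 and 0.13. This measure favours changes of the same size, so a gene that varied alike but rose more ranks lower. The median difference over 14145 genes was 0.57. Cx3cl1 encodes the neuronal chemokine fractalkine, and Vim encodes vimentin, an intermediate filament of astrocytes and precursors. Their log2 fold changes between APP_WT and WT were 0.94 and 0.97.

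Csf2rb had 2 probes, and they differed. A_52_P52618 gave 0.45, 0.31, 0.39 and 0.58, while A_66_P123635 gave 0.07, -0.10, 0.06 and -0.10. The first lay above 0 on every array, and it was well above background on 3 of 4 APP_WT channels and on 0 of 4 WT channels, so it was at least 1.32-fold higher in APP_WT (limma adjusted p 0.00168), with a log2 fold change of 0.43 that was 1.53 on the processed signals. The second was the brighter of the pair over all arrays, and was well above background on 2 of 4 WT channels. In APP_WT the margin was small, with levels of 6.71 for the second and 6.69 for the first. The second had a log2 fold change of -0.02 and a limma adjusted p of 0.876. Mouse Csf2rb has a near-identical neighbour, Csf2rb2, whose own probe had a log2 fold change of -0.05 (adjusted p 0.741), and how far the probes share transcripts was not tested.

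Csf1, the ligand of CSF1R known as M-CSF, was among the bright members. Probe A_51_P195506, printed on 10 spots of each array, gave 0.64, 1.03, 0.89 and 1.21. Within an array the SD over these spots was 0.03 to 0.10, less than the SD of 0.24 between the arrays. The mean was 0.94 ± 0.08 (SE, n = 4 arrays; 95% interval 0.76 to 1.12) with a limma adjusted p of 2.01e-05. Its level was 10.26 ± 0.20 (SD, n = 4) in WT and 11.23 ± 0.11 (SD, n = 12) in APP_WT, with 10.54 as the highest WT channel and 11.03 as the lowest APP_WT channel.

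The other Csf1 probes moved the same way. A_55_P2017914 gave 0.58, 0.66, 0.52 and 1.10, with a mean of 0.71 and an adjusted p of 0.000267. A_55_P2169669 gave 0.94, 0.72, 0.63 and 1.26, with a mean of 0.89 and an adjusted p of 0.000160. Between any 2 Csf1 probes the root mean square difference over the 12 arrays was 0.16 to 0.18, less than between the probes of Csf1r or Csf2rb.

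Il34, the other CSF1R ligand, gave 0.47, 0.91, 0.55 and 0.76. The mean of 0.67 ± 0.07 (SE, n = 4 arrays; 95% interval 0.51 to 0.84) had a limma adjusted p of 0.000123. The level was 6.93 ± 0.21 (SD, n = 4) in WT, where 2 of 4 channels were well above background, and 7.49 ± 0.24 (SD, n = 12) in APP_WT. The highest WT channel, at 7.24, lay just under the lowest APP_WT channel, at 7.28. On the scanner's processed signals the log2 fold change was 1.16.

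Set by role, the ligands had the higher median, 0.81 over the 2 genes, against 0.55 over the 2 expressed lineage factors and 0.47 over the 2 receptors. All 8 array values of the ligands were above 0, as were 7 of 8 for the expressed factors and 6 of 8 for the receptors by their brightest probes. The comparison of roles rests on 2 genes each and was given no test.

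The wider myeloid network was described by gene lists. Among 32 other myeloid transcription factors, 23 were expressed, of which 6 rose, 3 fell and 14 did not pass, with a median of 0.05 against 0.00 over all expressed probes. Cebpd, a C/EBP factor of acute inflammation, had log2 ratios of 1.73, 2.07, 2.17 and 2.38 and rose by 2.09 ± 0.10 (SE, n = 4 arrays) with a limma adjusted p of 3.16e-07. Batf3 rose by 0.93, Myb by 0.64 and Cebpb by 0.55. The 3 that fell, named after their values were seen, were the early response gene Egr1 at -0.44, Zeb2 at -0.31 and the microglial factor Sall1 at -0.30. On the scanner's processed signals the split of the list was 5 higher and 6 lower, with a median of -0.05.

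Partners of CSF1R in signalling numbered 26 expressed of 30, of which 11 rose, 0 fell and 15 did not pass, with a median of 0.02. Those that rose include genes used mainly by blood cells. Tyrobp, the adaptor DAP12, had log2 ratios of 2.48, 2.11, 2.00 and 2.29. Vav1, a guanine nucleotide exchange factor, rose by 1.24 and the GTPase Rac2 by 1.12, with adjusted p values of 2.37e-06 and 4.17e-06. With the arrays centred on their median the same list had 10 higher and 3 lower.

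A list of other receptors and ligands of the CSF, IL-3 and type III tyrosine kinase families also held related genes such as Stat5a, Jak2, Cish and Ptprz1. Of its 23 genes 18 were expressed, of which 5 rose and 4 fell, with a median of 0.03. The growth factor Pdgfb rose by 0.75, while Kitl, the ligand of KIT, fell by 0.45, the receptor Pdgfrb fell by 0.45 and the cytokine-induced inhibitor Cish fell by 0.41. Ptprz1, a phosphatase that also binds IL-34, rose by 0.20 with an adjusted p of 0.0390. The rest of those called, named after their values were seen, were Il3ra at 0.32, Stat5a at 0.30, Flt3l at 0.28 and Jak2 at -0.21. With arrays centred on their median the list had 4 higher and 5 lower and a median of -0.10, and without array 2 it had 2 higher and 2 lower and a median of -0.03. Csf2ra, the GM-CSF receptor α chain, had a log2 fold change of 0.04 and was not called. Csf2 and Flt3 were not expressed.

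Of 22 known PU.1 target genes 21 had a probe and 12 were expressed, of which 8 rose, 0 fell and 4 did not pass, with a median of 0.65. The list shares 4 genes with the microglia markers described further on. Ctss, the lysosomal protease cathepsin S, had log2 ratios of 2.65, 2.41, 2.47 and 2.56 and a limma adjusted p of 5.44e-08. The adaptor Blnk was at least 3.33-fold higher and the lysosomal membrane gene Laptm5 at least 2.17-fold higher, neither being well above background in any WT channel. The endotoxin co-receptor Cd14 rose by 1.11. Coro1a, Itgam, Csf3r and Csf2ra, also on the list, had log2 fold changes of 0.12, 0.11, 0.07 and 0.04 and were not called. On the processed signals the list had the same counts and a median of 2.04. Without the filter on dim probes, 9 of the 21 rose and 0 fell, with a median of 0.17. As with the members, a listed gene bright only in APP_WT could enter the test through that condition alone.

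**Figure D3:**
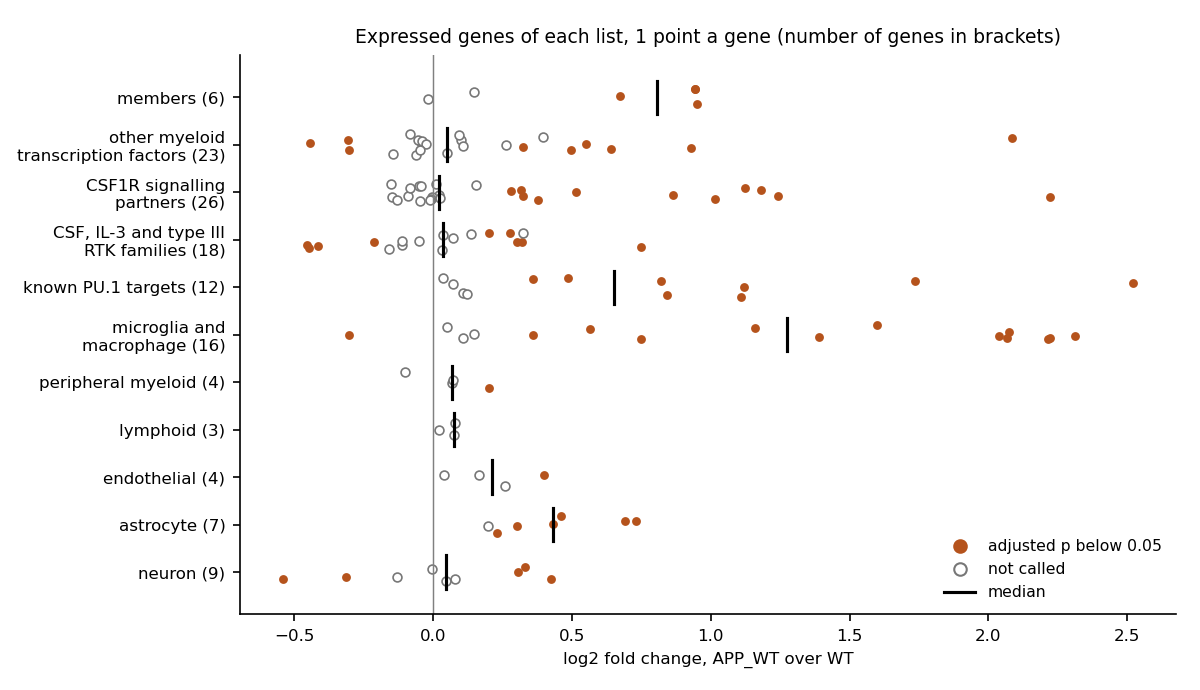
Log2 fold change of APP_WT over WT (x axis) for the expressed members and for the expressed genes of 10 lists (rows, with the number of genes), 1 point a gene. Filled points passed the limma threshold, open points did not, and black bars are medians, which were 1.27 for microglia and macrophage markers, 0.65 for PU.1 targets and 0.05 or less for neurons, myeloid factors and CSF1R partners.

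Most expressed markers of microglia and macrophages were also higher in APP_WT than in WT. Of 21 markers 20 had a probe and 16 were expressed, of which 12 rose and 1, Sall1, fell, with a median of 1.27, or 2.12 on the processed signals. Itgam, Siglech and Olfml3 were not called. Without the filter on dim probes, 12 of the 20 rose and 1 fell, with a median of 0.66. Cx3cr1, the fractalkine receptor, rose by 2.31, the microglial protein gene Aif1 by 2.21 and C1qa by 2.07, the last from 3 arrays because array 4 had no value. Adgre1, a surface marker of macrophages, was not well above background in any WT channel and was at least 4.10-fold higher in APP_WT. Summed over the 16 genes, the linear level was 27182 to 36378 per APP_WT channel and 23034 to 30588 per WT channel, so the sums overlapped. A linear sum gives the brightest genes the most weight and does not show how single genes moved. In these bulk samples more cells of a type and more RNA per cell cannot be told apart, and the part of the microglia markers in the Csf1r and Irf8 values was not tested.

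Markers of other cells were also read. Of the astrocyte markers, all 7 were expressed and 6 rose (3 with arrays centred on their median), with a median of 0.43 and a summed level of 133119 to 147340 in APP_WT against 96039 to 118229 in WT. The astrocyte water channel Aqp4 rose by 0.73 and Gfap by 0.69. Of 9 neuron markers Syt1, Gad1 and Gad2 rose and Dcx and Map2 fell, with a median of 0.05, and of 6 neural progenitor markers Nes and Prom1 rose and Hes5 and Pax6 fell. Of 8 oligodendrocyte lineage markers Cspg4 rose and Olig2 fell. These calls were not stable. Of the neuron markers 0 were called higher without array 2 or without array 3, and 1 was higher and 3 lower with arrays centred on their median. Of the progenitor markers 1 was called in each direction without array 2, 3 or 4, and of the oligodendrocyte markers 0 were called without array 3. Of 14 peripheral myeloid markers 4 were expressed and 1 rose, Camp, by 0.20, which was not called on the processed signals or without array 2, 3 or 4. Of 11 lymphoid markers 3 were expressed and 0 were called, with log2 fold changes of 0.02 to 0.08. Of 7 pericyte and fibroblast markers 6 were expressed and Lum, Pdgfrb and Dcn fell (2 of the 3 on leaving out any array), of 7 endothelial markers 4 were expressed and Flt1 rose (3 rose without array 1), and of 8 erythroid and megakaryocyte markers 2 were expressed and Pf4 rose. The part of the astrocyte markers in the Csf1 values was not tested.

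With BK, 0 of 29361 expressed probes were called (percent called 0), and 1311, or 4.47%, had an unadjusted limma p under the threshold. No member was called by limma. By SAM and rank products, the tests that the study's methods name, 2.41% of probes passed, and 1 member, Csf1, did. BK_APP and HOE_APP were each compared with APP_WT channels on their own arrays, but both groups share the untreated APP_WT neurospheres as control, so their values are set side by side and not counted as independent.

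Csf1 was the member with an unadjusted p under the threshold after BK. Probe A_51_P195506 had log2 ratios of BK_APP over APP_WT of 0.27, 0.11, 0.33 and 0.02. All 4 lay above 0, as did 5.10% of all expressed probes. The mean was 0.18 ± 0.08 (SE, n = 4 arrays; 95% interval 0.0041 to 0.36), with a limma p of 0.0458 and an adjusted p of 0.967. The other probes gave means of 0.10 and 0.18, with unadjusted p of 0.289 and 0.0959.

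The remaining members stayed near 0 with BK. Irf8 gave 0.29, 0.09, -0.11 and -0.20, above 0 under the first dye layout and below 0 under the other, with a mean of 0.01 and a 95% interval of -0.13 to 0.15. Csf1r probe A_55_P2025078 gave 0.09, -0.05, 0.02 and 0.02. Il34 gave -0.00, 0.17, 0.12 and -0.04, with a mean of 0.06. Cebpa had a mean of 0.05, the Csf2rb probes 0.05 and 0.07, and the other Csf1r probes 0.07 and -0.02.

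For HOE-140 the direction of the ratios is likely only. The labels of the 4 HOE_APP arrays name the same treatment for both channels, so the channel of the treated RNA was taken from channel 1, the title and the layout of the BK arrays. Of 29361 expressed probes 0 were called (percent called 0), and 1476, or 5.03%, had an unadjusted limma p under the threshold. By SAM and rank products 2.96% passed, with 0 members among them.

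Csf1r probe A_55_P2025078 had log2 ratios of HOE_APP over APP_WT of -0.01, -0.15, -0.17 and -0.11. All 4 were below 0, as for 5.00% of expressed probes. The mean was -0.11 ± 0.05 (SE, n = 4 arrays; 95% interval -0.23 to 0.01), with a limma p of 0.0760 and an adjusted p of 0.924. Its other probes had means of 0.05 and -0.01. With the sign of these arrays turned the mean is 0.11, and with arrays centred on their median it was 0.01.

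Csf1 after HOE-140 gave -0.03, -0.09, -0.09 and -0.21 on probe A_51_P195506. Again all 4 were below 0, and the mean of -0.10 ± 0.08 (SE, n = 4 arrays) had a limma adjusted p of 0.936. The other Csf1 probes had means of -0.10 and -0.11. Centred on the array median, the mean of the first probe was 0.02, and with the sign of the arrays turned it is 0.10. Irf8 had a mean of 0.00, Il34 0.06, Cebpa 0.02 and the Csf2rb probes -0.00 and -0.06.

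**Figure D4:**
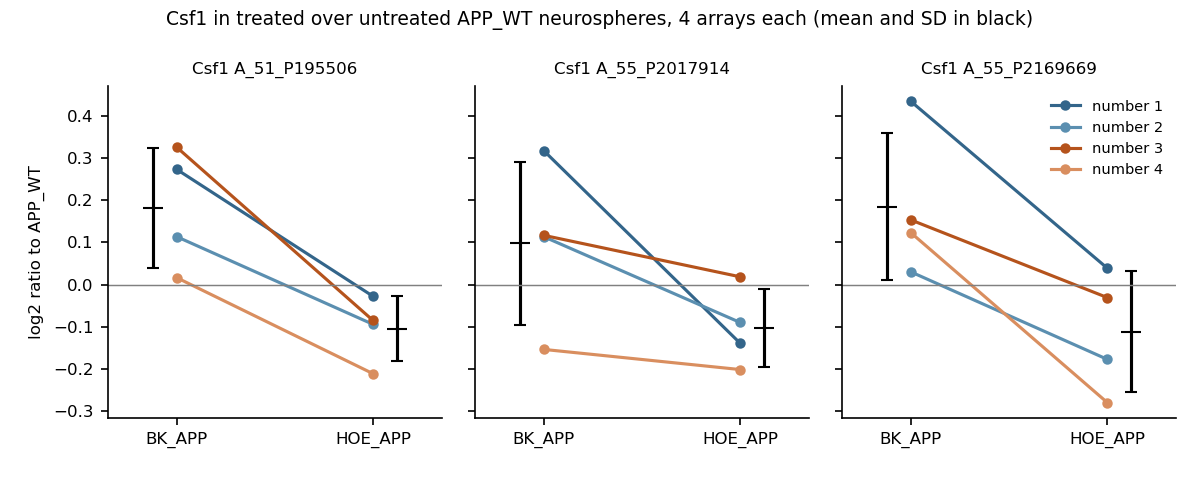
Log2 ratio to APP_WT (y axis) of the 3 Csf1 probes (panels) in BK_APP and HOE_APP neurospheres, with lines joining arrays of the same replicate number and mean and SD in black. All lines fall from BK_APP to HOE_APP, by 0.29 on average for A_51_P195506, under the likely channels of the HOE_APP arrays, and the spread of the BK_APP points is of the size of that difference.

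A contrast of BK_APP with HOE_APP was fitted as well. Of 29361 expressed probes 0 were called (percent called 0), and 733, or 2.50%, had an unadjusted p under the threshold. Csf1 probe A_51_P195506 was higher with BK than with HOE-140 by 0.30, 0.21, 0.41 and 0.23 for the 4 replicate numbers. The mean difference was 0.29 ± 0.11 (SE; 95% interval 0.04 to 0.54), with a limma p of 0.0292 and an adjusted p of 1.00. The other Csf1 probes differed by 0.20 and 0.30, with unadjusted p of 0.135 and 0.0630, and were above 0 for each of the 4 numbers. These values assume the likely channels of the HOE_APP arrays. With their sign turned the 3 Csf1 differences are 0.08, -0.00 and 0.07, and the first has a limma p of 0.511.

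The other members were not called either. Csf1r probe A_55_P2025078 differed by 0.13 ± 0.08 (SE; 95% interval -0.04 to 0.30), with 0.10, 0.10, 0.20 and 0.13 by number and an unadjusted limma p of 0.119. Irf8 differed by 0.01, with an interval of -0.19 to 0.21, and Il34 by 0.00, with an interval of -0.23 to 0.23. Cebpa differed by 0.02 and the Csf2rb probes by 0.13 and 0.06. With the HOE_APP sign turned, Csf1r differs by -0.08, Il34 by 0.12, Cebpa by 0.07 and Irf8 by 0.02, so the order of the members depends on that sign.

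Microglia markers beside these values had medians of 0.12 with BK, -0.08 with HOE-140 and 0.18 for the difference, with 0 of the 16 called in each. In the difference 15 of 16 were above 0, and with the sign of the HOE-140 arrays turned 8 of 16 were. With arrays centred on their median the HOE-140 median was -0.00. Shifts to a single side were not particular to microglia markers. Of the 9 neuron markers 0 were above 0 with BK (median -0.12), 2 with HOE-140 and 0 in the difference (median -0.08). Of the 7 astrocyte markers 2 were above 0 with BK, 0 with HOE-140 (median -0.10) and 4 in the difference. With arrays centred on their median, 3 of the 9 neuron markers were above 0 with BK and 5 of the 7 astrocyte markers with HOE-140. Cx3cr1 had 0.17 with BK and -0.18 with HOE-140, Aif1 0.22 and -0.08, and Tyrobp 0.32 and -0.02, the BK value of Tyrobp being above 0 on all 4 arrays. The summed level of the microglia markers was 28007 to 42678 in BK_APP and 21702 to 30778 in HOE_APP channels, which overlap. The APP_WT channels of the same arrays were at 26125 to 44602 for BK and 24400 to 34896 for HOE-140. Each treated range thus overlapped that of its own control. Cebpd had 0.25 with BK and -0.25 with HOE-140, and Cebpb 0.05 and -0.10. The part of microglia markers in the Csf1 and Csf1r differences was not tested.

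Each member's level could also be read across the 4 conditions. Csf1 by probe A_51_P195506 was 10.26 in WT, 11.15 ± 0.10 (SD, n = 4) in HOE_APP, 11.23 in APP_WT and 11.40 ± 0.07 (SD, n = 4) in BK_APP. HOE_APP and APP_WT overlapped in range, and so did APP_WT, at most 11.35, and BK_APP, at least 11.31. HOE_APP, at most 11.26, and BK_APP did not overlap, but with the channels of the HOE_APP arrays exchanged the HOE_APP level would reach 11.35 and overlap BK_APP. Csf1r by probe A_55_P2025078 was 9.50 in WT, 10.14 ± 0.16 (SD, n = 4) in HOE_APP, 10.36 in APP_WT and 10.40 ± 0.11 (SD, n = 4) in BK_APP, with the last 3 overlapping. Irf8 was 7.02, 7.96, 7.99 ± 0.13 (SD, n = 4) and 7.95 ± 0.10 (SD, n = 4) in WT, APP_WT, BK_APP and HOE_APP. Il34 was 6.93, 7.49, 7.45 ± 0.06 (SD, n = 4) and 7.54 ± 0.15 (SD, n = 4) in the same order. For both, the WT channels lay below the channels of the other conditions, which overlapped among themselves. Spi1 was 6.17, 6.31, 6.17 and 6.26, at background in each condition except 1 APP_WT channel.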

How the data were processed

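The authors deposited, per array, the scanner's median spot and local background intensity for Cy3 and Cy5, its processed intensity and the log10 ratio of the processed signals, made with Feature Extraction 11.0.1.1 per the file headers, and a table of normalised log2 ratios that ran in the same direction as the scanner values on all 12 arrays. Here normexp (offset 50) removed the background, ratios were normalised by loess within arrays (span 0.3), and spots of a probe were averaged. The offset shrinks ratios of dim probes. A single limma model (version 3.58.1, R 4.3.3) held a mean and a dye term for each comparison, with Benjamini-Hochberg adjustment over 29361 expressed probes, 461 of which lacked a value on some array. Probes were named through RefSeq accessions (27509 of 29150 matched), and a gene was read from its brightest expressed probe. The precision is limited by the 4 arrays per comparison. The scripts were tested on simulated data.

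The members and gene lists were chosen with earlier results of these data known. The genes named from a list are up to 4 called with the largest change, and a few set by name, some of which are not reported here. Replicate numbers may pair the BK_APP and HOE_APP arrays, but whether equal numbers share a culture is not stated. After the mean of each dye layout was removed, BK_APP and HOE_APP arrays of the same number correlated at 0.42 to 0.43. Both arrays of a layout give the same value by this measure. Between APP_WT versus WT and the treated arrays it was -0.51 to -0.21. Alternatives tried were the processed signals, another offset, median centring, the deposited table, other filters, no dye term, separate fits, a replicate block, the dimmest probe, SAM with rank products, the sign of the HOE_APP arrays and leaving out each array.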

Additional observations from a re-analysis of the deposited data

Results flagged for a closer look

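Runx1 probe A_55_P2183438 had 1 array far from the other 3 in both treatments. With BK the highest array was at 0.24 and the nearest at 0.01, a gap of 0.904 of the range. With HOE-140 the highest was at 0.16 and the nearest at -0.10, a gap of 0.854 of the range. Both pass Dixon's critical value at 95% for 4 arrays, and 48 groups of 4 were examined, of which chance alone passes about 1 in 20. The probe was not expressed in either comparison.

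Csf1 probe A_51_P195506 differed between BK_APP and HOE_APP by 0.29 on the log2 scale, with an unadjusted limma p of 0.0292 that does not survive adjustment over all expressed probes (adjusted p 1.00). With the replicate number as a fixed block over the 8 treated arrays, chosen after seeing the data, the difference had a p of 0.00103 and an adjusted p of 0.383. Both assume the likely channels of the HOE_APP arrays, and with their sign turned the difference is 0.08 with a p of 0.511.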

How the results depend on the processing

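Irf8, Csf1r, Csf1 and Il34 stayed higher in APP_WT than in WT and past the threshold under each limma alternative run, with log2 fold changes of 0.88 to 1.46, 0.25 to 1.00, 0.71 to 1.04 and 0.56 to 1.16. These are the brightest probes, and the low end of Csf1r is its dimmest. Csf1r probe A_55_P2025073 was called under 0 of 13 alternatives and changed sign under 5. The number of members called was 4 to 5 when each array was left out, the fifth being Cebpa without array 2, and 5 with the dimmest probe of each gene, where Csf2rb was read as 0.43 instead of -0.02. With BK, HOE-140 and their difference it stayed at 0 on leaving out each array, and with SAM and rank products it was 1 for BK, Csf1. The replicate block gave 4, 0, 0 and 0 members for APP_WT versus WT, BK, HOE-140 and the difference, and over all probes 5373 calls for APP_WT versus WT, against 5446. It left the calls of the members as they were, and of the astrocyte markers 5 were called instead of 6. Csf1r probe A_52_P602091 lost its call, at an adjusted p of 0.0603, when the comparison was fitted alone. The cause was not tested in these cases. Of 639 values of members under alternatives, 607 were rated the same. These were called in the same direction in both fits, or called in neither and less than the replicate SD apart. Values called in neither could change sign and still be rated the same. Over all probes, APP_WT versus WT had 2371 calls when fitted alone. The share of calls that were higher was 62.3%, but 34.3% on the processed signals, 36.4% with median centring and 33.3% in the deposited table. Without BK array 1, 62 probes were called for BK, with 0 members among them. Signal over background limits Spi1, Runx1, Ikzf1 and Cebpa, and the HOE-140 direction limits every HOE-140 value.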
